A study of Homo sapiens with 6 samples.

Results

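The 10 genes described here encode enzymes that break down the branched-chain amino acids leucine, isoleucine and valine. They are BCAT1, BCAT2, BCKDHA, BCKDHB, DBT, DLD, BCKDK, IVD, MCCC1 and MCCC2, taken by gene name from a deposited table of 17381 entries that carry 16510 names. They were chosen by pathway, with the group means of this table, and so the difference between the groups, already in view. The differences of the members are therefore given as a description and not as independent evidence. The cells are labelled Hep3B, a human hepatocellular carcinoma line, and the series title adds acquired resistance to the kinase inhibitor sorafenib. Messenger RNA was sequenced in 3 libraries of the group titled SKO, STIM1 knockout, and in 3 libraries of the group titled CN, wild type (control). The treatment field reads none in both groups, and the labels do not say whether the libraries of a group are separate cultures or clones. The genotype field of the SKO samples reads STIM1 KO, STIM2 KO and STIM3 KO over its 3 entries, whereas the series text names only a STIM1 knockout.

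Breakdown of branched-chain amino acids starts with transfer of the amino group to 2-oxoglutarate by a branched-chain aminotransferase, BCAT1 in the cytosol or BCAT2 in mitochondria. The branched-chain 2-oxoacid dehydrogenase complex (BCKDH) then removes carbon dioxide from the resulting oxoacid and couples the rest to coenzyme A, a step that cannot be reversed. The complex is built of a decarboxylase made of BCKDHA and BCKDHB, the core transacylase DBT and the dihydrolipoamide dehydrogenase DLD, and the kinase BCKDK switches it off by phosphorylating BCKDHA. Beyond it the leucine route runs through isovaleryl-CoA dehydrogenase (IVD) and the biotin enzyme methylcrotonyl-CoA carboxylase (MCCC1 and MCCC2). Adult hepatocytes are known for very little branched-chain aminotransferase, while BCAT1 is known as a transaminase of embryonic tissues that many tumours express.

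The deposited table lists a mean of normalized read counts for each group. Because these means carry many digits, the whole reads behind them could be worked out for each library. The order of libraries from this step, A to C within a group by falling size factor, has no link to the sample numbers. The libraries labelled KO held 12042705 to 15098349 reads and those of control 13857706 to 16398821. Below, "rose" and "fell" are used of libraries labelled KO against control and need an adjusted p under 0.05 as listed in the table the authors deposited. A level is in normalized reads and has the SD over 3 libraries. A log2 change has a standard error (SE) and comes from limma, a linear model fitted across all genes, on the log2(normalized reads + 1) scale. STIM1 itself was higher in the libraries labelled KO, at 1438 ± 16.1 against 951 ± 107 in control (SD, n = 3), so the transcript goes against the label. A gene total does not show the protein or the edited exon. Of 10 markers of hepatocytes and fetal liver, 2 were not listed, and ALB, AFP, APOA1 and AHSG had a mean under 1 in both groups. ALB and AFP are defining markers of the labelled cell type. The sum over the 8 listed markers, nearly all of it the transcription factor HNF4A, was 776 to 894 in the libraries labelled KO and 216 to 261 in control. SERPINA1 went the other way at a low level and passed as lower. With its copy added, it had 0 normalized reads in the libraries labelled KO and 7.12 ± 2.89 in control (SD, n = 3). TF and FGB did not pass. Of other cell types, 6 of 6 blood and immune markers summed to 31.3 to 49.6 in libraries labelled KO and 68.5 to 152 in control, with PTPRC under 1 in both. The 5 endothelial markers, all listed, summed to 19.5 to 22.9 against 127 to 165, and the 6 fibroblast markers, all listed, to 3121 to 3664 against 1950 to 2127, with KDR and PDGFRA under 1. PECAM1 carried the endothelial difference, at 3.01 ± 3.69 in the libraries labelled KO and 123 ± 15.5 in control (SD, n = 3). CDH5 was 12.3 ± 1.81 against 9.18 ± 1.22 and VWF 4.91 ± 3.39 against 5.6 ± 3.9, and neither passed. TEK was low in both groups. The fibroblast sum is mostly COL1A1, at 3111 ± 158 in the libraries labelled KO and 1485 ± 19.3 in control (SD, n = 3), while DCN and PDGFRB were lower in the libraries labelled KO, at 3.95 ± 3.45 against 107 ± 27.6 and at 149 ± 10.6 against 297 ± 23.6. COL1A2 and COL3A1 varied widely between libraries of a group, and neither passed. COL1A2 had 23.8, 208 and 1.19 normalized reads in the libraries labelled KO, against 153, 166 and 32.1 in control. COL3A1 had 5.72, 36.1 and 1.19 against 46.7, 100 and 24.9. The part of these markers in the results below was not tested, and fewer cells of a type cannot be told apart from less RNA per cell.

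The bases just before the start of 3 members are shown because these genes carry the main differences: BCAT1, which was almost lost, BCKDHA, which fell, and DLD, the member that rose. Each window holds the 250 bases before the gene start listed in the deposited table, from RefSeq on GRCh38.p14. Capitals mark matches, on either strand, to 4 motifs, which are the E-box CACGTG, the C/EBP-ATF response element TGATGNAA, CCAAT and the GC box GGGCGG. No matches overlap each other in these windows.
BCAT1, chr12:24949102-24949351, minus strand: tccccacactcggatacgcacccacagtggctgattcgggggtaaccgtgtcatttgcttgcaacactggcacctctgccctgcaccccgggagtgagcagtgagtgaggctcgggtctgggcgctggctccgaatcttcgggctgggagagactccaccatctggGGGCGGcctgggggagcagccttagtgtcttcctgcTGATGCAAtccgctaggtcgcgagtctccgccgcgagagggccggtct
BCKDHA, chr19:41397568-41397817, plus strand: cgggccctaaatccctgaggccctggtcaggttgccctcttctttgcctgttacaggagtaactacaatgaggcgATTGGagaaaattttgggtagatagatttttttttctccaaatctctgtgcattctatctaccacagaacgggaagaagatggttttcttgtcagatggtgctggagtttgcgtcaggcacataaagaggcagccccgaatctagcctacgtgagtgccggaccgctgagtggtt
DLD, chr7:107890857-107891106, plus strand: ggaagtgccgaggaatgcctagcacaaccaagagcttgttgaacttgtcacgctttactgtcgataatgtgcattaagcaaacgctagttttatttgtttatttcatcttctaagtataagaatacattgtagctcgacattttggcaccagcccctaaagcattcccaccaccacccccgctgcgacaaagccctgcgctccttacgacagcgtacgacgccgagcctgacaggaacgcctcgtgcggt

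The BCAT1 window holds 1 match to the C/EBP-ATF response element, ending 40 bases before the gene start, and 1 GC box. It is the only window with that element among 9 members that had a window in the RefSeq table, and 3.14% of 35116 windows of the same length hold it. BCAT1 has 5 windows in that table, and the one printed is that of the listed start. The BCKDHA window has 1 CCAAT match and the DLD window none of the 4 motifs. CCAAT was found in 6 of 9 member windows (32.0% of all windows), the GC box in 6 of 9 (42.6%) and the E-box in 2 of 9, MCCC1 and MCCC2 (6.34%). The BCAT1 window holds 17 CpG pairs, and 39.0% of all windows hold at least as many. A match is a description of the letters in these windows and not evidence of binding.

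Among the 10 members the cytosolic transaminase BCAT1 stood apart from the rest, with 2 reads left over the 3 libraries labelled KO. Both decarboxylase subunits and the kinase of the dehydrogenase complex were lower, DLD was higher, and the other 5 members differed by small amounts. By the authors' deposited table, DLD alone rose, 4 members fell and 5 did not pass. Over all 17381 entries, 54.5% passed, with 25.7% higher and 28.8% lower. limma also put 1 member higher and 4 lower, where 69.9% of 14770 genes passed, with 32.9% higher and 36.9% lower. Of entries with a mean of at least 100, where all members but BCAT1 lie in both groups, 75.3% passed, so 5 of 10 members is no excess over the background. The groups did not overlap in 7 of 10 members, against 72.4% of 14770 genes tested. The median log2 change of the members was −0.12, against −0.04 over all genes tested. Libraries of a group lay close together: without BCAT1, the coefficient of variation of a member was 1.02% to 7.39% in the libraries labelled KO and 1.74% to 9.63% in control. Its median over all genes with a mean of 500 to 3000 was 3.56% in the libraries labelled KO and 3.72% in control. Per kilobase of the listed gene length, DLD had the highest level in both groups, 792 ± 14.1 normalized reads in the libraries labelled KO and 454 ± 7.89 in control (SD, n = 3), followed in the libraries labelled KO by MCCC2 at 396 ± 4.03. BCKDHB, at 16.7 ± 1.2 in the libraries labelled KO and 29.3 ± 2.83 in control, was the lowest in control, but its listed length of 18016 bases is far above the 4071 exon bases that GENCODE release 29 gives it.

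**Figure D1:**
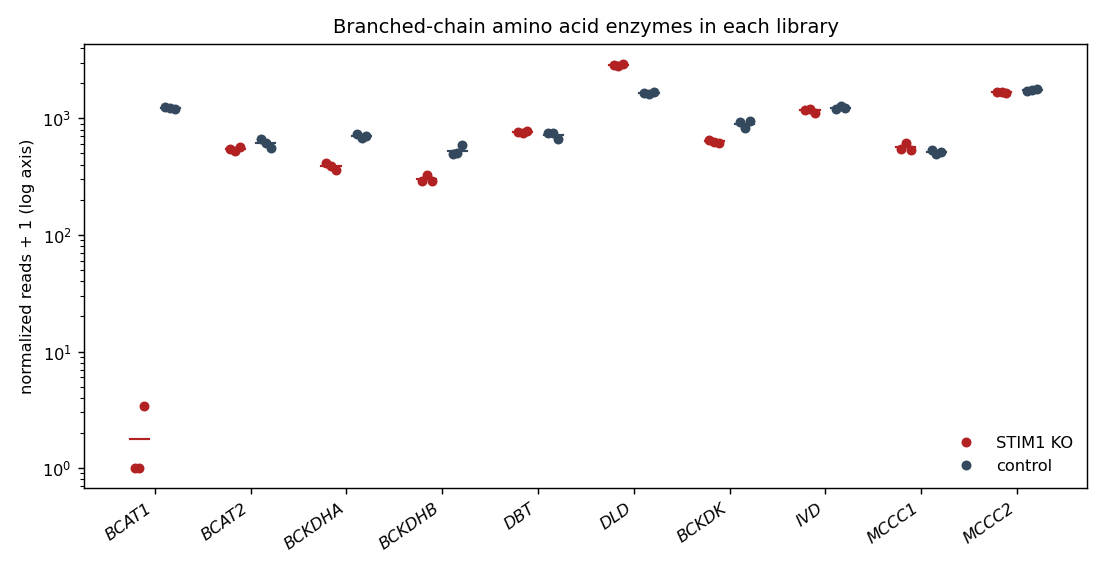
Normalized reads + 1 on a log axis for the 10 members, with libraries labelled STIM1 KO in red at left and control libraries in dark blue at right of each pair. Points are libraries and lines are group means. BCAT1 lies at 0, 0 and 2.38 normalized reads in the libraries labelled KO against 1214 to 1251 in control, while the other members lie within the same decade in both groups.

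BCAT1 (chromosome 12, 24810024 to 24949101, minus strand, GRCh38) had 0, 0 and 2.38 normalized reads in libraries A, B and C labelled KO, against 1251, 1218 and 1214 in control libraries A, B and C. All 3 control libraries thus lay close together, and 2 of the 3 libraries labelled KO held no read of the gene. In reads, this is 2 over the group labelled KO and 3854 over control. With the reads of each group pooled and divided by its summed size factors, control was 1790-fold higher. The 95% exact counting interval, from 495-fold to 14788-fold, covers counting error only. This ratio differs from that of the group means, by which the libraries labelled KO held 0.0646% of the control level. Both reads lie in library C, which has the lowest size factor of its group. The authors' deposited table gave a log2 change of −10.60 with an adjusted p listed as 0. limma's value of −9.68 (SE 0.37) depends on the added constant. For scale, the libraries labelled KO held under 5% of the control level in 43 of 3873 genes with a control mean of at least 1000, BCAT1 among them. This filter uses control alone, so it takes in genes that are high there, and the count is a description only.

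BCAT2 (chromosome 19, 48795064 to 48811029, minus strand), the mitochondrial transaminase, had 548, 521 and 567 normalized reads in the libraries labelled KO, against 666, 612 and 554 in control. The groups overlapped, since control library C lay below library C labelled KO. It averaged 545 ± 23.4 in the libraries labelled KO and 611 ± 56.2 in control (SD, n = 3). This is a log2 change of −0.16 (SE 0.07), which did not pass in the deposited table. Levels of both genes can be set side by side only per length. Per kilobase of the gene length listed by the authors, BCAT1 made up 0.0242% ± 0.042 of the transaminase transcripts in the libraries labelled KO and 25.9% ± 1.51 in control (SD, n = 3). With exon lengths from GENCODE release 29 these shares were 0.054% ± 0.0935 and 43.8% ± 1.93, so the control share depends on the length used. Summed over both genes, the level per listed kilobase was 237 to 259 normalized reads in the libraries labelled KO, against 348 to 403 in control, and the groups did not overlap. Nearly all transaminase transcripts that were left in the libraries labelled KO were thus those of BCAT2.

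**Figure D2:**
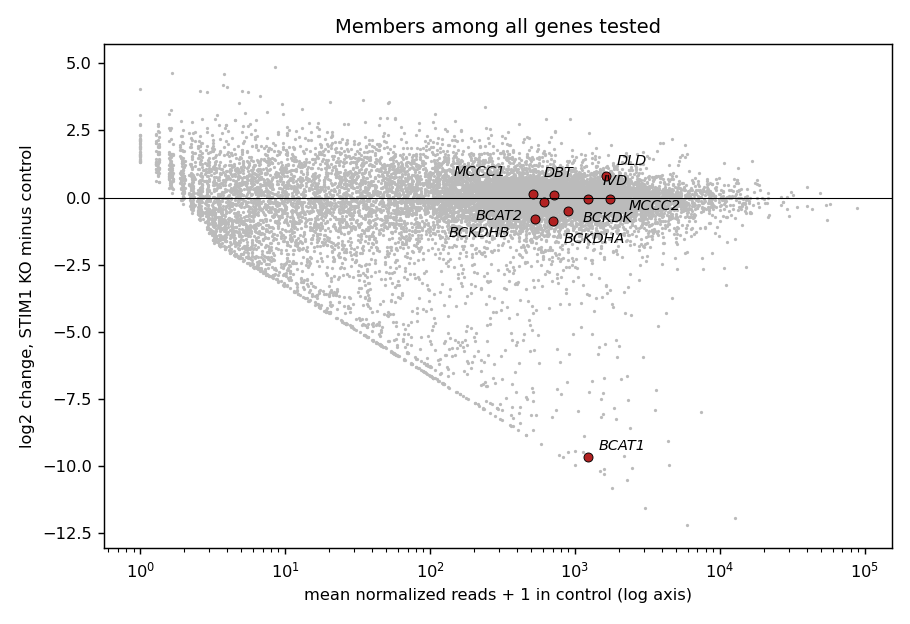
Log2 change from limma (libraries labelled STIM1 KO minus control) against the mean normalized reads + 1 in control on a log axis, for 14770 genes tested in grey and the 10 members in red. BCAT1, at −9.68, lies near the lower edge set by genes with almost no reads in the libraries labelled KO, while the other 9 members lie between −0.87 and 0.80.

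In the dehydrogenase complex the subunits moved unequally. BCKDHA (chromosome 19, 41397818 to 41425002, plus strand), the alpha subunit of the decarboxylase and the one that BCKDK phosphorylates, had 411, 392 and 358 normalized reads in the libraries labelled KO, against 730, 682 and 710 in control. It fell to 387 ± 26.8, against 707 ± 24.4 in control (SD, n = 3), a log2 change of −0.87 (SE 0.07). GENCODE annotates a longer gene on the same strand that shares 63.8% of its exon bases, so some reads may belong to that transcript. BCKDHB (chromosome 6, 80106610 to 80469088, plus strand), the beta subunit, had 292, 326 and 287 normalized reads in the libraries labelled KO, against 493, 505 and 587 in control. It fell by 0.81 on the log2 scale (SE 0.08), close to its partner, and for both genes every library labelled KO lay below every control library.

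DBT (chromosome 1, 100186919 to 100249864, minus strand), the transacylase core to which the other subunits bind, had 756, 744 and 786 normalized reads in the libraries labelled KO, against 751, 743 and 667 in control. These groups overlapped, with a log2 change of 0.08 (SE 0.06), and the gene did not pass. DLD (chromosome 7, 107891107 to 107921198, plus strand), the flavoenzyme that reoxidises the lipoyl arm of this and of several other complexes, had 2848, 2819 and 2918 normalized reads in the libraries labelled KO, against 1635, 1615 and 1671 in control. It rose to 2862 ± 50.8, against 1640 ± 28.5 in control (SD, n = 3), a log2 change of 0.80 (SE 0.03). All 3 libraries labelled KO lay above all control libraries. The DLD exons share 70 bases with LAMB1 on the opposite strand, and the sources used here do not say whether counting used strand.

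The ratios within each library show the same divergence. Per listed kilobase, BCKDHA to BCKDHB was 12.4 to 14.6 in the libraries labelled KO, against 12.5 to 15.3 in control, and these ranges overlapped. BCKDHA to DBT was 3.48, 3.37 and 2.92 in the libraries labelled KO, against 6.23, 5.88 and 6.83 in control. DLD to BCKDHA was 3.34, 3.47 and 3.93 in the libraries labelled KO, against 1.08, 1.14 and 1.13 in control. The pair of decarboxylase subunits thus kept its ratio within the spread of the libraries, whereas the ratios to the core and to DLD did not overlap between groups. The size of each ratio depends on the listed gene lengths, which cancel when the groups are set side by side.

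Both sides of the phosphorylation switch were lower. BCKDK (chromosome 16, 31108381 to 31117651, plus strand), the kinase that inactivates the complex, had 647, 632 and 619 normalized reads in the libraries labelled KO, against 926, 828 and 941 in control. It fell by 0.50 on the log2 scale (SE 0.06), and the groups did not overlap. PPM1K, the mitochondrial phosphatase that removes the phosphate, is named for this role after its values were seen. It fell to 526 ± 25.3, against 693 ± 9.12 in control (SD, n = 3), a log2 change of −0.40 (SE 0.06). Per listed kilobase, BCKDK to PPM1K was 4.75, 4.73 and 4.24 in the libraries labelled KO, against 5.14, 4.49 and 5.11 in control, which overlap. BCKDK to BCKDHA was 1.16, 1.19 and 1.27 against 0.932, 0.893 and 0.974, so the kinase was higher relative to its substrate subunit in every library labelled KO than in any control library.

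The 3 members that act only on the leucine route differed little. IVD (chromosome 15, 40405787 to 40435948, plus strand), which oxidises isovaleryl-CoA, had 1184, 1215 and 1120 normalized reads in the libraries labelled KO, against 1211, 1274 and 1220 in control, and the groups overlapped. MCCC1 (chromosome 3, 183015218 to 183099587, minus strand), the biotin-carrying subunit of the carboxylase, had 547, 613 and 536 normalized reads in the libraries labelled KO, against 530, 495 and 518 in control. MCCC2 (chromosome 5, 71587340 to 71658706, plus strand), the other subunit, had 1687, 1668 and 1653 against 1720, 1737 and 1782. In these subunits the groups did not overlap, but the gaps were small, and neither passed. The log2 changes were −0.07 (SE 0.05) for IVD, 0.13 (SE 0.07) for MCCC1 and −0.07 (SE 0.04) for MCCC2. MCCC2 has 2 further entries on alternate loci with 34 reads in all, against 10307 at the main locus, and these were added to it. The ratio of IVD to MCCC2 per listed kilobase was 0.509 ± 0.0184 in the libraries labelled KO and 0.513 ± 0.0178 in control (SD, n = 3).

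**Figure D3:**
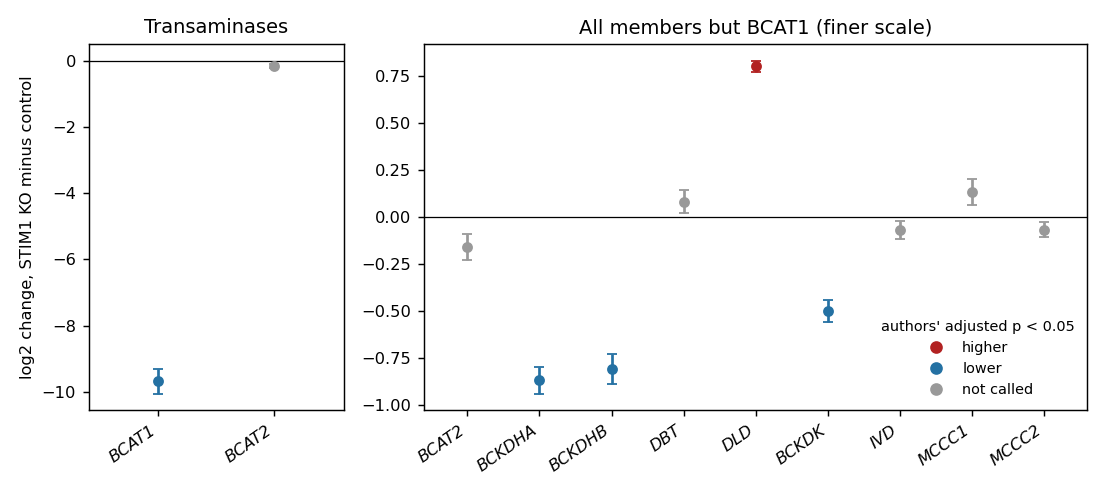
Log2 change from limma (libraries labelled STIM1 KO minus control) with its SE as the bar, for both transaminases at left and for 9 members without BCAT1 on a finer scale at right. Colour gives the call in the authors' deposited table. BCKDHA, BCKDHB and BCKDK lie between −0.87 and −0.50, DLD lies at 0.80, and BCAT2, DBT, IVD, MCCC1 and MCCC2 lie within 0.16 of 0.

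Beyond the members, 65 genes of later steps, transport, cofactors, related complexes and leucine sensing were compared in 11 lists. In all, 63 were listed in the table, and BDH1, SLC43A2, ACACA and SESN2 were not counted because their reads are divided with copies on alternate loci. Of the other 59, 22 rose, 20 fell and 17 did not pass, a share called of 71.2%, beside 54.5% of all entries and 75.3% of those with a mean of at least 100. Their median log2 change was 0.05. Over all entries, 25.7% were higher and 28.8% lower. Apart from the end of the leucine route, each list held 3 to 11 counted genes and 57.1% to 83.3% of them were called, around the background. The counts and medians of single lists are therefore descriptions, and differences between lists were not tested.

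Of 5 enzymes of the valine branch, 4 fell and 0 rose, with a median log2 change of −0.27. HIBCH, which releases 3-hydroxyisobutyrate from its coenzyme A ester, fell most among them, to 230 ± 12.3, against 352 ± 9.96 in control (SD, n = 3). Of 6 enzymes of the isoleucine branch, 3 rose and 1 fell, with a median log2 change of 0.14. ACAT1, the mitochondrial thiolase that splits the last isoleucine intermediate and also serves ketone body metabolism, rose to 4092 ± 104, against 2221 ± 79.5 in control, a log2 change of 0.88 (SE 0.04). ECHS1, the enoyl-CoA hydratase of valine and isoleucine breakdown, fell by 0.27 on the log2 scale (SE 0.05).

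At the end of the leucine route AUH, the hydratase that follows the carboxylase and is named after its values were seen, had 262, 191 and 231 normalized reads in the libraries labelled KO, against 509, 554 and 504 in control. This is 43.6% of the control level, a log2 change of −1.20 (SE 0.10), and the groups did not overlap. OXCT1, which activates acetoacetate in ketone body use and is likewise named after its values were seen, fell to 1314 ± 50.2, against 2007 ± 45.9 in control (SD, n = 3). BDH1, a ketone body dehydrogenase also named after its values were seen, passed as higher at its main locus (log2 change of 1.28 in the authors' deposited table). It is uncertain because of its copy and its low level. With the copy added, it had 24.8, 25.4 and 21.4 normalized reads in the libraries labelled KO, against 16.7, 11.6 and 5.18 in control. Of 7 genes that carry propionyl-CoA to succinyl-CoA, 2 rose and 2 fell, with a median log2 change of −0.07. PCCB, a subunit of propionyl-CoA carboxylase, had the largest rise, 0.61 on the log2 scale (SE 0.04), and the epimerase MCEE the largest fall, −0.84 (SE 0.11).

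DLD is shared with other mitochondrial complexes, and 11 of their other subunits were compared. Of these, 6 rose, 2 fell and 3 did not pass, with a median log2 change of 0.36. PDHA1, the decarboxylase subunit of pyruvate dehydrogenase that corresponds to BCKDHA, had 8022, 8065 and 7998 normalized reads in the libraries labelled KO, against 5125, 5294 and 5195 in control, a log2 change of 0.63 (SE 0.03). Its partners PDHB, DLAT and PDHX rose as well, by 0.46, 0.36 and 0.39 on the log2 scale, and are named after their values were seen. The ratio of PDHA1 to BCKDHA per listed kilobase was 10.3 ± 0.707 in the libraries labelled KO and 3.66 ± 0.187 in control (SD, n = 3). OGDHL, a paralogue of the 2-oxoglutarate dehydrogenase subunit OGDH, had 1.91, 2.93 and 0 normalized reads in the libraries labelled KO, against 79.3, 122 and 99.5 in control. It fell by 5.47 on the log2 scale (SE 0.44). In pooled reads divided by summed size factors, control was 58.2-fold higher (95% exact counting interval from 24.7 to 180).

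**Figure D4:**
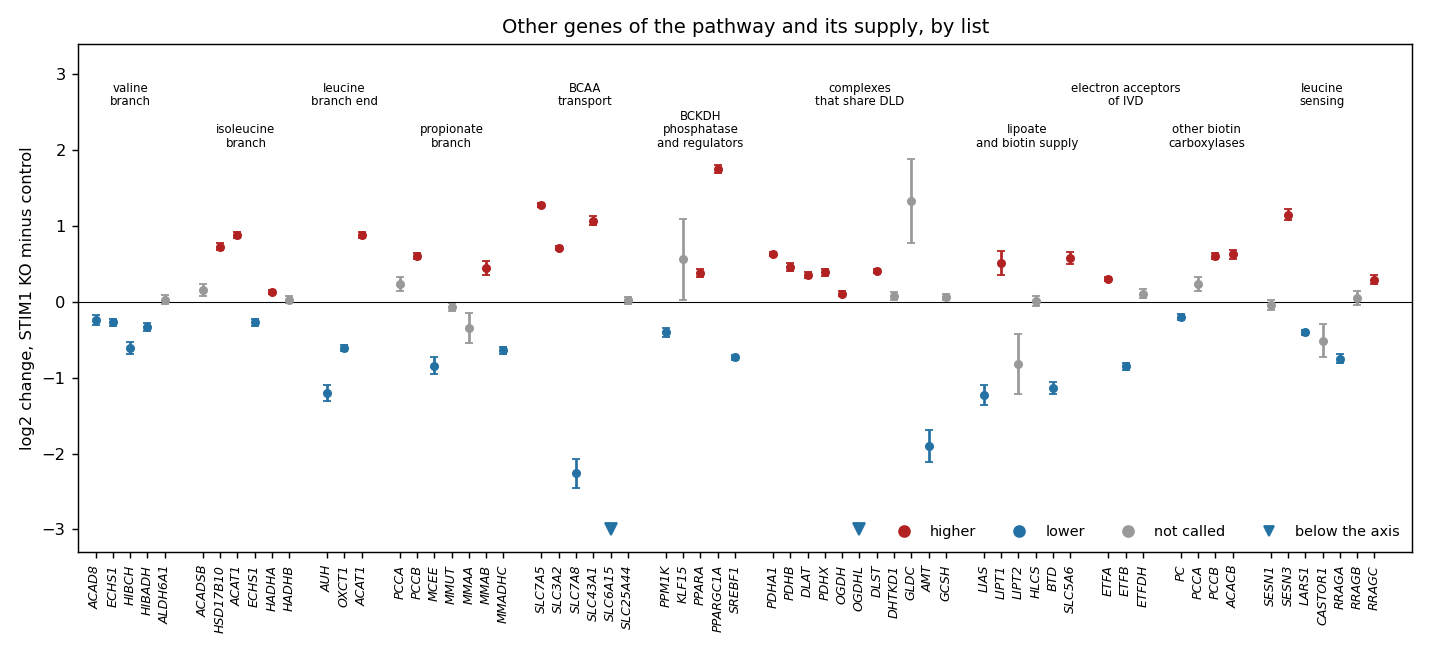
Log2 change from limma (libraries labelled STIM1 KO minus control) with its SE as the bar, for 59 other genes in 11 lists. Genes in more than 1 list appear in each, triangles mark SLC6A15 and OGDHL below the axis, and colour gives the call in the authors' deposited table. The valine branch lies mostly below 0 and the pyruvate dehydrogenase subunits above it.

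Transporters of these amino acids split. SLC7A5, the large neutral amino acid exchanger that brings leucine into cells, rose to 25827 ± 433, against 10604 ± 356 in control (SD, n = 3), a log2 change of 1.28 (SE 0.03). SLC3A2, its heavy chain, rose by 0.71 on the log2 scale (SE 0.03) and is named after its values were seen. SLC6A15, a sodium-coupled transporter of branched-chain amino acids and proline, held no read in the libraries labelled KO, against 1823, 1757 and 1805 normalized reads in control libraries. It was at least 1744-fold lower, with 3 reads over the whole group taken as the floor. Of 6 carriers counted, 3 rose and 2 fell, with a median log2 change of 0.36. The mitochondrial carrier SLC25A44, named after its values were seen, averaged 972 ± 51.5 in the libraries labelled KO and 960 ± 16.3 in control, with overlap.

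Among regulators, PPARGC1A, a coactivator of mitochondrial genes, rose to 1146 ± 26.2, against 341 ± 5.33 in control (SD, n = 3), and the lipid regulator SREBF1 fell by 0.73 on the log2 scale (SE 0.03). Of 5 genes on that list, 2 rose and 2 fell, with a median log2 change of 0.38. Cofactor genes divided as well, 2 higher and 2 lower of 6, with a median log2 change of −0.41. LIAS, which makes the lipoyl group that DBT carries, fell to 110 ± 20.7, against 258 ± 13.3 in control. SLC5A6, the importer of biotin, rose by 0.58 on the log2 scale (SE 0.08). Of the flavoproteins that accept electrons from IVD, ETFA rose by 0.30 (SE 0.03) and its partner ETFB fell by 0.85 (SE 0.05) on the log2 scale, and ETFDH, which hands these electrons on to ubiquinone and is named after its values were seen, did not pass (median of the list 0.11). Among 4 counted biotin carboxylase genes other than MCCC, 2 rose and 1 fell, with a median log2 change of 0.43. ACACB, which makes malonyl-CoA, changed by 0.63 (SE 0.06) and pyruvate carboxylase PC by −0.20 (SE 0.04). Of 7 counted genes of leucine sensing, 2 rose and 2 fell, with a median log2 change of −0.04. The sestrin SESN3 rose to 932 ± 15.4, against 422 ± 37.2 in control, and the GTPase RRAGA fell to 590 ± 36.5, against 996 ± 65.2 in control.

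The members were also set beside their chromosomal neighbours, taking the 5 nearest genes on each side with a mean of at least 10 in the authors' deposited table. All log2 changes in this comparison, those of the members included, are the values of the authors' deposited table and not limma's. The 10 neighbours of BCAT1 spanned 4613 kb and had a median log2 change of −0.34, between −1.33 and 0.38, with 6 lower and 1 higher. BCAT1, at −10.60, lay far outside this range. BCKDK, at −0.51, lay within the range of its neighbours, of which 7 were lower and 1 higher, with a median of −0.79. DLD, at 0.80, exceeded all 10 of its neighbours, whose highest value was 0.61 and median 0.33. BCKDHA and BCKDHB, at −0.87 and −0.81, lay within the ranges around them, whose medians were −0.30 and −0.44. Around BCKDHB, ELOVL4, which makes very long fatty acids and is named after its values were seen, was listed at 0 in the group labelled KO.

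**Figure D5:**
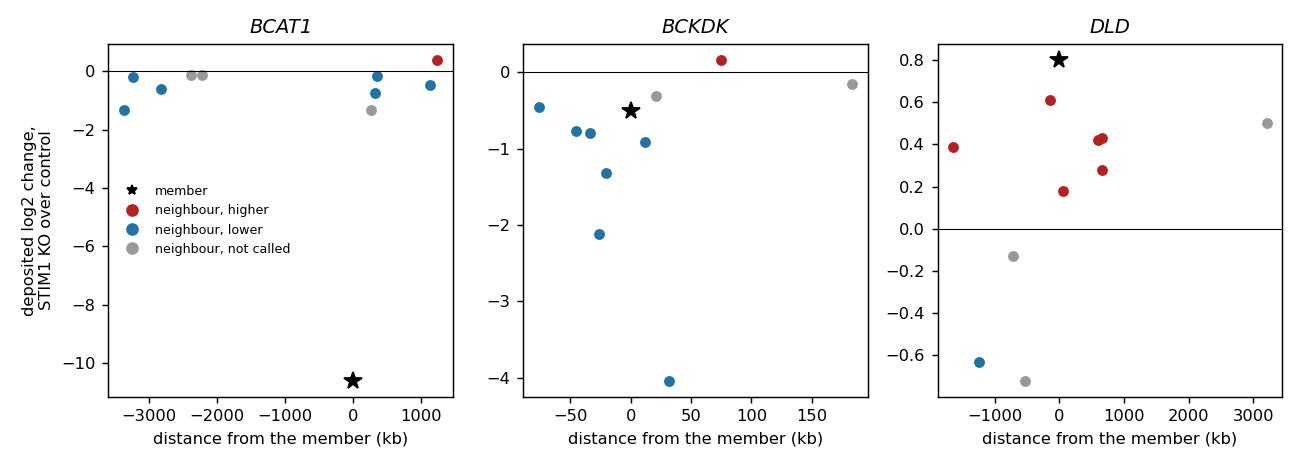
Deposited log2 change (group labelled STIM1 KO over control) of BCAT1, BCKDK and DLD as stars and of their 10 nearest genes with a mean of at least 10 as points, against distance in kb between gene midpoints. Vertical scales differ between panels. BCAT1 lies at −10.60 below neighbours that range from −1.33 to 0.38, BCKDK lies among its neighbours, and DLD lies above all of its own.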

How the data were processed

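Per the file headers, the authors deposited for each gene a signal, the group mean of read counts divided by a size factor per library, in the columns of the DESeq format. They also deposited, as further columns by the authors, the fold (ratio) between both means, the log2 of this fold and a p-value with its adjusted form. A companion table that repeats 6 of these columns was not used. The aligner and counting tool are not given in the sources used here. The submitters' processing notes list the mouse builds GRCm38 and mm10, but the chromosome accessions are those of human GRCh38. Of 16335 names on main chromosomes, 16053 matched RefSeq genes of GRCh38.p14 by name and chromosome, with starts within 5000 bases for 97.7%.

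A group mean printed to 15 digits is a sum of 3 whole read counts, each times the step of 1 read. The steps were read from the lowest values, and the reads of every gene were searched for (Python 3.11.15). The search settled all entries; EEF1A1, for which several sets of reads fitted, was left out. Above a mean of 60 sets with similar libraries were sought first, which favours a small SD. Recomputed means differed from the deposited ones by at most 2.9e-10, and size factors recomputed as medians of ratios by −0.00407% to 0.00156%. Entries that share a name were summed. The model (R 4.3.3, limma 3.58.1) used a trended empirical Bayes variance and Benjamini-Hochberg adjusted p-values on log2(normalized reads + 1) for genes with a mean of at least 1. The read search and the limma model were each tested on simulated data that were simpler than these. The search returned the reads of all 400 simulated entries in each group. Their libraries differed by counting error only, and they were modelled on entries that had a single solution. In the limma simulation few genes were changed, whereas most genes passed here. Because the deposit holds no count column, calls are those of the authors at an adjusted p under 0.05, and negative binomial count models were not run on the reads worked out from means; limma's voom was run on them as an alternative. SDs and SEs measure the spread between these libraries, which may be technical.

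The members and lists were chosen with earlier results of these data known. Named genes are the members, STIM1, and from each list the called gene with the largest rise and the largest fall at a mean of at least 10. A gene at the end of the leucine route is not reported here and is in none of the counts, so no count or median is given for that list. Cell type markers aside, genes named outside this rule are said to be named after their values were seen.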

Additional observations from a re-analysis of the deposited data

How the results depend on the processing

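The number of members called did not move beyond 1.5 times under any alternative run, with 1 rise in each and 4 or 5 falls. All genes called ranged from 8406 (adjusted p under 0.01 in the authors' table) to 10431 (limma on main copies only, a setting chosen after seeing the data), around the reported 9472. Leaving out 1 library at a time, limma called 9741 to 9922 genes, and 21 to 24 of the wider pathway genes as higher and 19 to 23 as lower. No member changed direction in 14 alternatives. BCAT2 was the member whose call moved. It passed under limma with a pseudocount of 5, with voom weights, without library C labelled KO (log2 change of −0.19) and without control library C (−0.23), within adjusted p values of 0.0131 to 0.258 over its alternatives; the cause was not tested. The log2 change of BCAT1 ran from −10.49 to −7.76 with the added constant and the weighting, since 2 reads set its lower level. No paired analysis was possible because the deposited columns carry no replicate number. The planned edgeR and DESeq2 fits were not run, because they were planned for deposited counts and the deposit holds group means; of the reads worked out from these means, voom was the alternative run. Among the members, BCAT1 in the libraries labelled KO alone rested on few reads, so depth limits the size of its change.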
